A study of Homo sapiens with 10 samples.

Results

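The interval described is a 40 Mb stretch of the long arm of chromosome 10, from base 85000001 to base 125000000 of hg38, seen through RNA-DNA hybrid maps of a human osteosarcoma cell line, U2OS. Its members were chosen by position: the peaks of 5 hybrid maps were merged where they overlapped or touched, and the merged regions that start in this stretch were kept. That gave 2102 of 177004 merged regions, against 5829 on the rest of chromosome 10. The stretch itself was chosen on earlier results of the same libraries, in which the mutant cells had a smaller share of their peak bases there than wild-type cells. The share of peak bases is therefore given as a description, without a test.

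The mutant cells carry the H493R change in TDP1, which causes the neurodegenerative syndrome SCAN1, and WT U2OS cells were their control. The mutant cells were 2 lines, SCAN1#1 in experiments 1 and 2 and SCAN1#2 in experiment 2 alone, and WT cells were in both experiments, so there were 3 SCAN1 and 2 WT libraries. SCAN1#2 was thus seen in 1 library, and each mutant line may carry differences of its own besides TDP1. The sources used here do not say how the lines were made. The replicate number is the experiment, antibody lots differed between the experiments, and lot and experiment cannot be told apart. The labels do not say whether the libraries came from separate cultures, so p-values measure the spread between these libraries. Both SCAN1 libraries of experiment 2 were set against the same WT library.

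R-loops are structures in which a new RNA pairs with its DNA template and leaves the other strand single. They form mostly over transcribed genes, and most often just after transcription starts and near transcript ends. TDP1 removes topoisomerase I that has become trapped on DNA, a lesion that arises during transcription and is linked to R-loops. In DNA-RNA immunoprecipitation sequencing (DRIP-seq), the S9.6 antibody pulls down the hybrids, and a peak is a place where the authors' caller found the pulled-down DNA enriched over its background estimate.

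Promoter sequences are printed here because most of the strongest shared regions lie at gene ends, and so that windows with and without a peak can be read side by side. Each window runs from 250 bases before to 50 bases after a transcription start, read 5′ to 3′ on the gene's strand, from RefSeq on GRCh38.p14. Capitals mark GGGCGG, the letters known as a GC box, on either strand, so that CCGCCC is marked as well. The windows were picked after their values were seen: OGA lies under 1 of the 10 strongest shared regions, BLOC1S2 and TCF7L2 lie near the opposite ends of G over C content among windows with a peak in all 5 libraries, and HHEX is a GC-rich window with no peak.
OGA, peak in 5 of 5 libraries, chr10:101818395-101818694, minus strand: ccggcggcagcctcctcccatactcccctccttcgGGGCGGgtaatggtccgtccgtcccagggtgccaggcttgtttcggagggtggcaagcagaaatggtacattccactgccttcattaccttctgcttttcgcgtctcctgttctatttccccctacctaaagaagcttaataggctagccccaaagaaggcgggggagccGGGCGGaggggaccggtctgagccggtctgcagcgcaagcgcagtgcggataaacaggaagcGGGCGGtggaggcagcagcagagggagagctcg
BLOC1S2, peak in 5 of 5 libraries, chr10:100286315-100286614, minus strand: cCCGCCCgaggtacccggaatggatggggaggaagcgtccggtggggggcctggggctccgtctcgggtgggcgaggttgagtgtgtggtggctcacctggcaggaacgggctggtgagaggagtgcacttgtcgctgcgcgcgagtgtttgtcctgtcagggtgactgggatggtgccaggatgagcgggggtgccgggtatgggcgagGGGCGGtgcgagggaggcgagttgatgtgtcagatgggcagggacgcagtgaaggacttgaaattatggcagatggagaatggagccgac
TCF7L2, peak in 5 of 5 libraries, chr10:112949997-112950296, plus strand: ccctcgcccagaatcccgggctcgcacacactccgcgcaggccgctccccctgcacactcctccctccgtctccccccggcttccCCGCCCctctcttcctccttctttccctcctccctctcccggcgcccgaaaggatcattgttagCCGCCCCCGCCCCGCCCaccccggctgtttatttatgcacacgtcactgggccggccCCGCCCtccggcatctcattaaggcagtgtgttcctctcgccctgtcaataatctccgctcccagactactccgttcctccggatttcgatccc
HHEX, peak in 0 of 5 libraries, chr10:92689705-92690004, plus strand: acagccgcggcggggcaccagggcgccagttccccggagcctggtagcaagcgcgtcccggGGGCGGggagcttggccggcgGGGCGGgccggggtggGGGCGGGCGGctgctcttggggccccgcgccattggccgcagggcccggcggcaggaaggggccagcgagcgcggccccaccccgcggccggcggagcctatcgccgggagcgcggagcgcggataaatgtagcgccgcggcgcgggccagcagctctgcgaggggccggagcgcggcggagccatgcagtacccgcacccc
OGA encodes the enzyme that removes O-linked N-acetylglucosamine from proteins, and its window was 61.7% G or C. BLOC1S2 encodes a subunit of a complex that builds lysosome-related organelles, and G exceeded C on its coding strand by 0.43 of all G and C. TCF7L2, a transcription factor of Wnt signalling, had the opposite makeup, with a G over C balance of -0.46. HHEX, a homeobox transcription factor, had the highest G or C content of the printed windows at 80.3% and no peak in any library. The GC box letters stand in the HHEX window as well as in the other printed windows.

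Across the region, 379 start windows of 269 genes could be matched to the RefSeq promoter table, and 74 of these genes had several starts. A peak covered part of the window in 15.0%, 19.8% and 20.1% of them in SCAN1#1 of experiment 1, SCAN1#1 of experiment 2 and SCAN1#2, and in 17.4% and 17.2% in WT of experiments 1 and 2. Over all 22131 windows of the table the shares were 20.3%, 23.5% and 21.7% in the SCAN1 libraries in the same order, and 21.2% and 19.2% in WT. In each of the 5 libraries the share was thus smaller in the region than over all windows. The SCAN1 and WT shares overlapped in the region.

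Of the 379 windows, 39 (10.3%) had a peak in all 5 libraries, against 12.2% of all 22131 windows, and 273 had none. The 39 belong to 33 genes, and windows of close starts overlap. GGGCGG, searched on both strands, was in 64.1% of the 39 windows and in 48.4% of the 273, and in 56.3% of all windows of the table. TATAAA, the letters of a TATA box, also searched on both strands, was in 0 of the 39 windows, in 30 of the 273 (11%) and in 9.46% of all windows. A run of GGGGG on the coding strand, which can overlap a GC box, was in 48.7% of the 39 windows, in 36.3% of the 273 and in 44.9% of all windows. The median G or C content was 64.0% in the 39 windows and 61.7% in the 273. These shares describe the letters of the windows and are not binding data.

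Transcription starts of the region were covered most often just downstream. The share of start sites with a peak was highest 300 to 500 bases after the start, at 17.9%, 23.5% and 22.2% in the 3 SCAN1 libraries and at 19.5% and 20.3% in the 2 WT libraries. Over the 2 kb after the start it averaged 9.13%, 14.3% and 12.4% in SCAN1 and 10.4% and 11.5% in WT. Over the 2 kb before the start it averaged 5.15%, 6.97% and 6.25% in SCAN1 and 6.44% and 6.20% in WT. The share was higher after the start than before it in 5 of 5 libraries. Its height did not separate the genotypes.

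**Figure D1:**
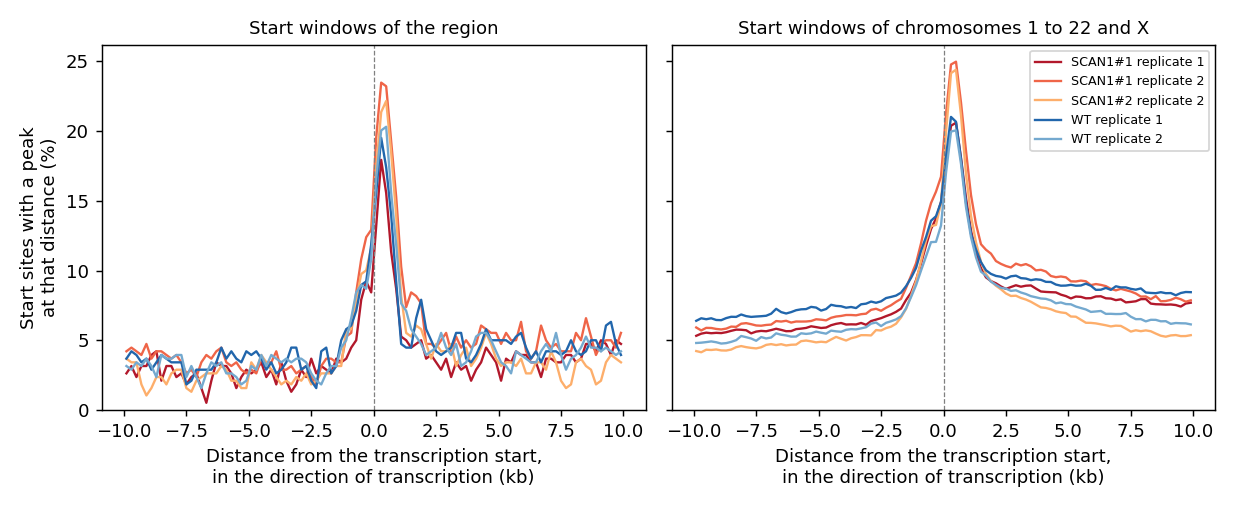
Share of transcription start sites (%) with a peak at each distance from the start (kb, in the direction of transcription, 200-base steps), for the 379 starts of the region (left) and the 22131 starts of the table (right), 1 line per library. All 5 lines peak just after the start, at 17.9% to 23.5% in the region, and SCAN1 lines lie on both sides of WT lines.

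Pairs of genes that start back to back held some of these windows. FAS, a death receptor, and ACTA2, smooth muscle actin, start 94 bases apart on opposite strands, and both windows had a peak in all 5 libraries. COX15, needed to make the heme of cytochrome oxidase, and CUTC, a copper handling protein, start 107 bases apart and had the same record. Of 32 windows in such pairs, with starts up to 1 kb apart, 5 (15.6%) had a peak in all 5 libraries, against 34 of the other 347 windows (9.80%). Windows of close starts overlap, so 1 peak can count for both genes, as at FAS and ACTA2 and at COX15 and CUTC. POLL, a DNA repair polymerase, and DPCD start 64 bases apart, and the POLL window had a peak in 0 libraries and the DPCD window in 2.

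The region held 564, 1239 and 918 peaks in SCAN1#1 of experiment 1, SCAN1#1 of experiment 2 and SCAN1#2, and 919 and 1067 peaks in WT of experiments 1 and 2. They covered 315, 659 and 487 kb in SCAN1 and 476 and 594 kb in WT. As a share of each library's peak bases this was 0.762%, 0.987% and 0.946% in SCAN1 and 0.968% and 1.07% in WT. Each SCAN1 library was below WT of its own experiment, and the groups overlapped, because SCAN1#1 of experiment 2 was above WT of experiment 1. A lower share is not a lower amount, as SCAN1#1 of experiment 2 had more peaks and more kb in the region than its WT. In bulk cells, the number of cells with a hybrid and the number of hybrids per cell cannot be told apart. Lists held 63456 to 110745 peaks, and read depth is unknown.

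On the log2 scale the share was -0.34, -0.12 and -0.18 against WT of the same experiment. The means were 0.898% ± 0.120 in SCAN1 (SD, n = 3) and 1.02% ± 0.0734 in WT (SD, n = 2), and the difference of the mean log2 shares was -0.19. Without SCAN1#1 of experiment 1 that difference was -0.08, and without WT of experiment 2 it was -0.12. These differences of means take no account of the experiment, and with the experiments as a block the difference was -0.23. The rest of chromosome 10 had values of the same sign, -0.27, -0.16 and -0.11. With the rest of chromosome 10 in place of the whole library as the denominator, the difference for the region was -0.07.

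The stretch was uneven. A single bin of 5 Mb, from 100 to 105 Mb, holds 76 of the region's 300 protein-coding genes, 672 of its 2102 merged regions and 104 of the 208 with a peak in all 5 libraries. It took 0.474%, 0.429% and 0.408% of peak bases in SCAN1, and 0.473% and 0.404% in WT, so the genotypes were interleaved. The log2 share against WT of the same experiment was 0.00, 0.09 and 0.02 there.

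The other 35 Mb together took 0.288%, 0.559% and 0.538% of peak bases in SCAN1 and 0.494% and 0.668% in WT. Against WT of the same experiment these were -0.78, -0.26 and -0.31 on the log2 scale, and the difference of the mean log2 shares was -0.38. The bin was set apart after its values were seen. SCAN1#1 of experiment 1, with the fewest peaks, stood farthest from its WT library. Without it the difference was -0.07, and without WT of experiment 2 it was -0.16. These differences of means take no account of the experiment. Within experiment 2 the SCAN1 libraries stood at -0.26 and -0.31, and with the experiments as a block the difference was -0.50.

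Bins of 5 Mb at the centromere side were lower in SCAN1 in all 3 comparisons. From 85 to 90 Mb the share was 0.039%, 0.066% and 0.062% in SCAN1 and 0.065% and 0.098% in WT, with log2 values of -0.74, -0.57 and -0.66. From 90 to 95 Mb the log2 values were -0.93, -0.35 and -0.56, and from 95 to 100 Mb they were -0.55, -0.17 and -0.22. These bins hold 41, 32 and 52 protein-coding genes. From 110 to 115 Mb the log2 values were -0.74, -0.12 and -0.00, so SCAN1#2 was level with WT there. At the far end, from 115 to 120 Mb, the log2 values were -1.07, -0.34 and -0.52, and from 120 to 125 Mb they were -1.08, -0.48 and -0.33. Lower values were not limited to the region. Just outside it they were -0.41, -0.46 and -0.25 from 80 to 85 Mb, and -0.14, -0.08 and -0.25 from 125 to 130 Mb. From 130 to 135 Mb they were 0.97, 0.39 and 0.09.

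The gene-poor bin from 105 to 110 Mb, with 3 protein-coding genes, ran differently by experiment. Its share was 0.012%, 0.056% and 0.051% in SCAN1 and 0.018% and 0.043% in WT. The log2 values were -0.62 for experiment 1, and 0.39 and 0.24 for SCAN1#1 and SCAN1#2 in experiment 2. The gene-dense centre of the 100 to 105 Mb bin was the megabase from 102 to 103 Mb, with 23 protein-coding genes. That megabase alone took 27.8%, 15.2% and 14.8% of the region's peak bases in SCAN1 and 20.7% and 13.5% in WT.

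**Figure D2:**
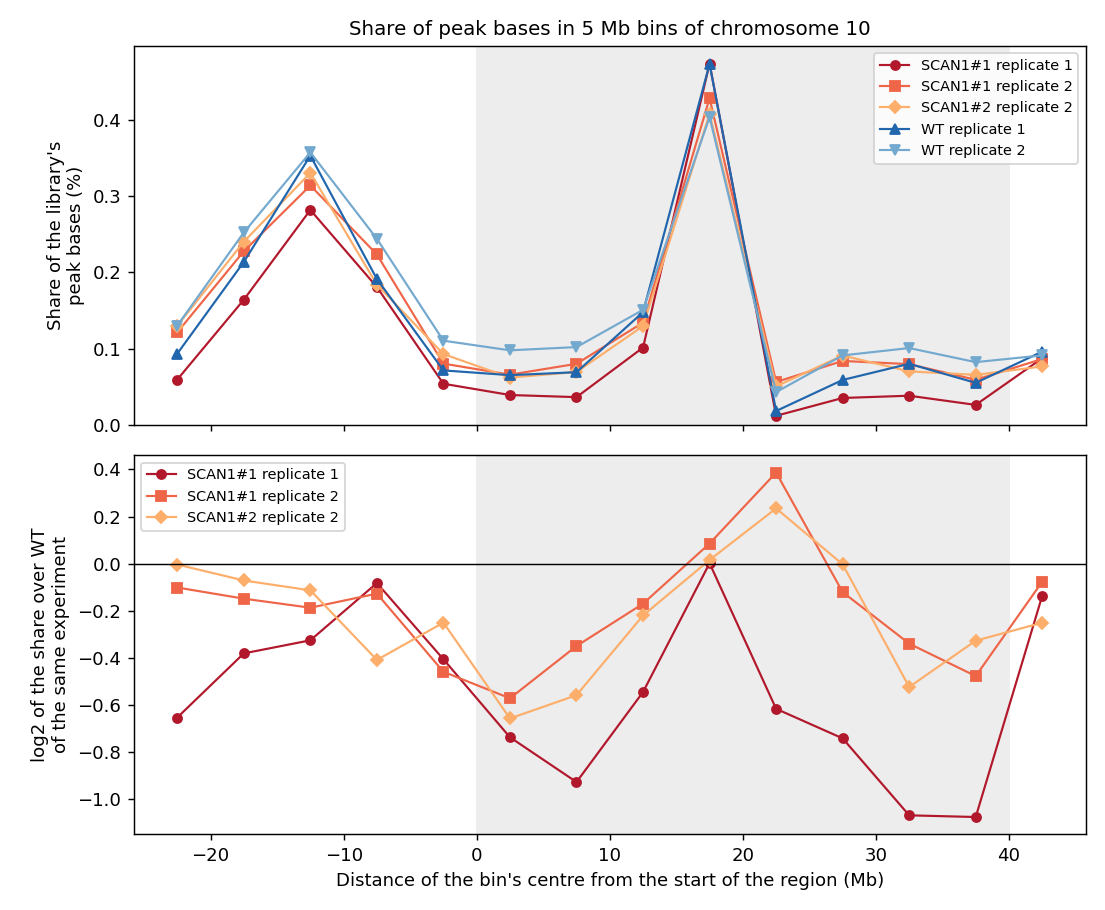
Share of each library's peak bases (%, top) and its log2 ratio over WT of the same experiment (bottom) in 5 Mb bins, by distance of the bin's centre from the start of the region (Mb). The grey band is the region. The bin 17.5 Mb from the start stands out at 0.404% to 0.474% in all 5 libraries and lies at 0.00 to 0.09 on the log2 scale, with lower values on both sides for SCAN1#1 of experiment 1.

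By annotation, the peak bases of the region were divided into 4 classes. Gene ends are the 1 kb to each side of the first and last base of a protein-coding gene, and gene interiors are the rest of it. Genes of other kinds outside these make up the class of other genes, and what is left is intergenic. Gene ends are 2.77% of the 40 Mb and held 25.9%, 16.8% and 19.3% of the region's peak bases in SCAN1 and 20.8% and 16.4% in WT. The difference between the means, 20.7% ± 4.67 in SCAN1 (SD, n = 3) and 18.6% ± 3.16 in WT (SD, n = 2), was 2.08 percentage points. It was smaller than the spread between libraries, with p = 0.8 in an exact permutation test (two-sided), where 0.1 is the smallest p that 3 against 2 libraries allow. That test takes no account of the experiment. Against WT of the same experiment, the share was 5.05, 0.48 and 2.96 points higher in the 3 SCAN1 libraries, and with the experiments as a block the difference was 3.15 points. Without the block, the difference was -0.52 points when SCAN1#1 of experiment 1 was left out and -0.15 points without WT of experiment 2. It was 4.32 points without WT of experiment 1 and 4.01 points without SCAN1#1 of experiment 2.

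Gene ends took a larger part of peak bases in the region than elsewhere. In the rest of the genome they held 19.7%, 13.7% and 15.2% of peak bases in SCAN1 and 17.2% and 13.2% in WT. The region exceeded the rest of the genome by 4.06 ± 1.26 percentage points (mean and SD over 5 libraries), in 5 of 5 libraries. An exact two-sided sign-flip permutation test gave p = 0.063, the smallest p that 5 libraries allow. All 5 libraries measured the same loci, so this p concerns the spread between libraries and not how unusual the stretch is. The share of sequence near gene ends outside the region was not computed.

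Intergenic sequence stood farthest below WT in both SCAN1#1 libraries, and other genes did in SCAN1#2. Intergenic sequence held 44.3, 164 and 120 kb of peaks in SCAN1 and 101 and 158 kb in WT. As a share of all peak bases, the log2 values against WT of the same experiment were -0.93, -0.21 and -0.28 in the region, -0.50, -0.28 and -0.15 on the rest of chromosome 10, and -0.29, -0.10 and -0.02 in the rest of the genome. For gene ends they were -0.03, -0.08 and 0.06 in the region, and 0.20, 0.06 and 0.21 in the rest of the genome. Gene interiors of the region stood at -0.28, -0.08 and -0.17, and other genes at -0.52, -0.18 and -0.54. Gene ends of the region were the class nearest to WT in SCAN1#1 of experiment 1 and in SCAN1#2, and gene ends and interiors were level in SCAN1#1 of experiment 2. Differences between the region and other parts of the genome in these values were not tested.

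**Figure D3:**
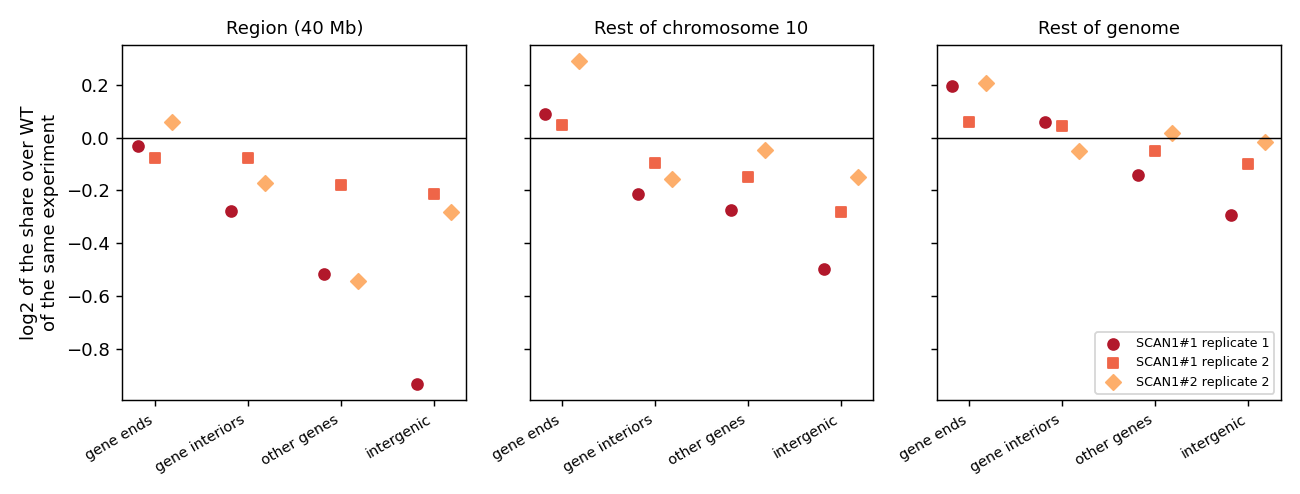
Log2 ratio of the share of peak bases in each class over WT of the same experiment, for the 3 SCAN1 libraries, in the region, the rest of chromosome 10 and the rest of the genome. In the region gene ends lie between -0.08 and 0.06 and intergenic sequence between -0.93 and -0.21.

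Few places were seen in every library. Of the 2102 merged regions, 1034 (49.2%) had a peak in 1 library, 396 in 2, 265 in 3, 199 in 4 and 208 (9.90%) in all 5. Over all 177004 merged regions, 43.1% had a peak in 1 library and 12.4% in all 5. Regions seen in more libraries were wider, with a median width of 311 bases for 1 library and 1179 bases for 5. The shared regions lay at gene ends more often: 85 of the 208 (40.9%) touched a gene end, against 69 of the 1034 (6.67%), and a wider region has more chance of doing so.

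**Figure D4:**
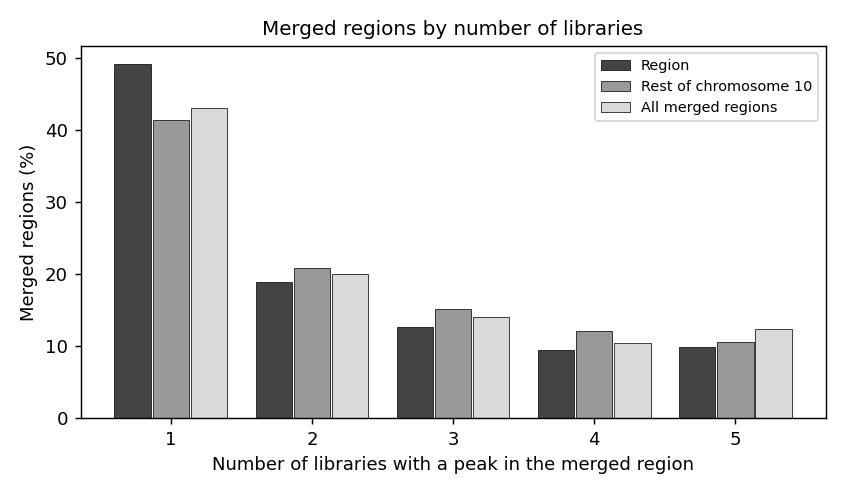
Share of merged regions (%) by the number of libraries with a peak in them, for the region, the rest of chromosome 10 and all merged regions. In the region 49.2% lie in 1 library and 9.90% in all 5.

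At the borders, the first member starts at base 85009090 and had a peak in WT of experiment 2 alone, and the last merged region before the border, at base 84986489, had peaks in SCAN1#2 and in WT of experiment 2. The last member, at base 124998842, and the first merged region beyond it, at base 125001037, each had a peak in 1 library, SCAN1#1 of experiment 2 and SCAN1#1 of experiment 1.

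The strongest shared regions were ranked by the authors' fold enrichment of their highest peak, which is relative to the background that the caller estimated and serves to rank peaks within a list. First came chr10:100371432-100375743, which overlaps OLMALINC, a long noncoding RNA gene, 6606 bases from SCD, the fatty acid desaturase gene. Its fold enrichment was 37.0, 59.9 and 52.5 in SCAN1 and 21.0 and 25.8 in WT, and these values were called in separate lists and are not compared. Next came chr10:86966149-86972356 at ADIRF, an adipocyte regulator gene, with 29.3 on average over the 5 libraries. The region chr10:101817401-101819031, which holds the OGA window printed above, followed with 26.8.

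At an end of ANKRD1, a muscle and mechanical-stress response gene, chr10:90919569-90920818 averaged 24.9, and the mean was 23.9 at an end of SLF2, whose protein brings a DNA repair complex to damage. FAM24B averaged 19.7 and FBXW4, an F-box gene, 18.2. The other strong regions were wide and lay close together. Within the outer ends of PPRC1, which encodes a transcription coactivator of mitochondrial genes, chr10:102131823-102141034 averaged 19.6. It also covers a PPRC1 start window that had a peak in all 5 libraries. The region from the end of PPRC1 into NOLC1, which encodes a nucleolar chaperone, averaged 16.6 over 11704 bases. At the other end of NOLC1 lay a region 7286 bases wide, among the widest 5 but not the strongest 10, with a mean of 7.90. The widest member, 11889 bases at chr10:102395891-102407779, touches ends of NFKB2, which encodes a subunit precursor of NF-kB, and of PSD. LOXL4, which encodes a collagen crosslinking enzyme, held the other of the widest 5, with 7579 bases.

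Regions that split by genotype were few. A peak in all 3 SCAN1 libraries and no WT library was found in 18 of the 2102 members (0.856%), against 0.945% of all merged regions. A peak in both WT libraries and no SCAN1 library was found in 40 members (1.9%), against 1.39% of all merged regions. On the rest of chromosome 10 the shares were 0.721% for SCAN1 alone and 1.80% for WT alone, near those of the region. The stretch was chosen for a lower share of peak bases in SCAN1, so nothing is read from these counts. The fold enrichment of the members, averaged over the libraries with a peak, reached 9.45 in the first set and 6.68 in the second. With lists of equal length the counts were 11 and 28.

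The counts rest on each library. The count for SCAN1 alone was 101 without SCAN1#1 of experiment 1, 41 without SCAN1#2, 44 without WT of experiment 1 and 45 without WT of experiment 2. The count for WT alone was 93 without SCAN1#1 of experiment 2, 70 without SCAN1#2, 278 without WT of experiment 1 and 270 without WT of experiment 2. A criterion over fewer libraries is easier to meet.

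Among the 18, the strongest was chr10:101738142-101738960, in a noncoding gene 31149 bases from FGF8, with fold enrichments of 5.51, 12.5 and 10.3 in the 3 SCAN1 libraries. The others of the first 5 lay inside NOC3L, which acts in ribosome assembly, inside DNMBP, which encodes an exchange factor for a small GTPase, 14886 bases from RPEL1, and just inside ENTPD7, next to an end of SLC25A28. Of the 18, 3 (16.7%) touched a gene end and 9 (50%) lay inside genes. Among the 40, the strongest lay inside WAPL, which releases cohesin from chromosomes, at chr10:86507088-86507817, with 4.65 and 8.72 in WT of experiments 1 and 2. The others of the first 5 lay 2013 bases from RRP12, 28587 bases from PIK3AP1, and inside AVPI1 and LHPP. Of the 40, 1 touched a gene end, 24 lay inside genes and 12 were intergenic.

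Gene coverage was the percent of a protein-coding gene, with 1 kb added at both ends, that lay under peaks, from lists cut to equal length. Of the 300 protein-coding genes, 142 had a peak in all 5 libraries and 51 had none in the full lists. A mean coverage of at least 2% was reached by 90 genes, which were tested among 8471 genes of the genome. The limma fit called 0 of the 90, as it called 0 (0%) of the 8471 at an adjusted p under 0.05. At an unadjusted p under 0.05 it had 0 members higher and 4 lower in SCAN1, and 164 genes higher and 131 lower over all 8471. On the log2(percent + 1) scale it called 3 genes higher and 1 lower in SCAN1 over the genome, and 0 members.

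All 3 SCAN1 libraries lay above both WT libraries in 3 of the 90 members (9.48% of all genes tested), and below both in 10 members (6.86% of all genes tested). The region was chosen on the same contrast, so nothing is read from these counts. The median difference, SCAN1 minus WT, was -0.12 percentage points over the 90 members and 0.08 over all genes tested. With the experiments as a block the medians were 0.12 and 0.29. Against WT of the same experiment, SCAN1 was above in all 3 comparisons in 11 of the 90 members (19.4% of all genes tested) and below in all 3 in 13 members (15.8% of all genes tested). Of these comparisons 2 share a WT library. The genes named next are the 11, and the 12 of the 13 that were named by the size of their smallest difference.

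LOXL4, at chr10:98247690-98268194, had the largest difference by that rule. Its coverage was 28.6%, 30.6% and 20.6% in SCAN1 and 49.3% and 58.8% in WT, so the groups did not overlap. The difference was -27.4 ± 8.97 percentage points (limma, SE), with an adjusted p of 1. PGAM1, a glycolytic enzyme gene at chr10:97426191-97433444, had 17.6%, 11.8% and 12.8% in SCAN1 and 43.3% and 30.4% in WT, again without overlap, and a difference of -22.8 ± 6.48 points (limma, SE, adjusted p of 1). Both genes had less of their length under peaks in each SCAN1 library than in either WT library.

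Next by that rule came EIF3A, CEP55 and WAPL. EIF3A, which encodes a subunit of the translation initiation machinery, had 8.41%, 3.67% and 2.15% in SCAN1 and 13.7% and 8.53% in WT. CEP55, needed for the final cut between daughter cells, had 5.14%, 1.83% and 2.64% in SCAN1 and 11.8% and 5.92% in WT. WAPL had 1.24%, 1.91% and 1.13% in SCAN1 and 2.89% and 5.37% in WT. In each of these genes the highest SCAN1 library lay below the lowest WT library. With the full lists EIF3A had 8.41%, 10.9% and 8.84% in SCAN1 and 16.8% and 10.6% in WT, and its groups overlapped.

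The rest of the 12 named genes with lower coverage in SCAN1 in each experiment followed. CUTC averaged 4.53% ± 0.77 in SCAN1 (SD, n = 3) and 6.02% ± 1.07 in WT (SD, n = 2). HIF1AN, which encodes an oxygen-sensing hydroxylase, averaged 18.6% ± 4.36 in SCAN1 and 24.2% ± 1.3 in WT (SD, n = 3 and 2), and its groups overlapped. GSTO2, LOC124902474, SLF2 and EEF1AKMT2 had differences of -1.31, -3.06, -0.56 and -1.64 points. These differences, and those of CUTC and HIF1AN, are within 2 standard errors. CCNJ, a cyclin gene, had 2.44%, 0% and 2.17% in SCAN1 and 3.20% and 4.90% in WT, and its value of 0% in SCAN1#1 of experiment 2 was 2.78% in the full list.

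Higher coverage in SCAN1 in each experiment was seen in 11 genes, all named here. ZDHHC16, which encodes a palmitoyltransferase, had 44.0%, 30.3% and 37.5% in SCAN1 and 34.0% and 24.8% in WT, and the groups overlapped. BLOC1S2 had 20.4%, 32.6% and 28.4% in SCAN1 and 18.4% and 23% in WT, also with overlap. MRPL43, a mitochondrial ribosome gene, had 39.5%, 33.6% and 27.5% in SCAN1 and 36.9% and 23.3% in WT. Its groups overlapped too.

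Groups did not overlap in DNMBP, COX15 and COL17A1. DNMBP had 3.43%, 4.90% and 3.89% in SCAN1 and 1.94% and 1.93% in WT. COX15 averaged 5.0% ± 0.64 in SCAN1 (SD, n = 3) and 3.58% ± 0.63 in WT (SD, n = 2). COL17A1, a collagen of the basement membrane attachment, had 4.13%, 5.26% and 4.05% in SCAN1 and 1.95% and 3.22% in WT. HPS1, SEMA4G, SH3PXD2A, GSTO1 and NOLC1 had differences of 2.98, 3.77, 0.50, 2.68 and 3.42 points, with overlap in each. Among the genes higher in SCAN1, all but DNMBP had differences within 2 standard errors. COX15 and CUTC share the start region described above and had differences of opposite sign, 1.43 ± 1.08 and -1.49 ± 1.27 points (limma, SE).

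**Figure D5:**
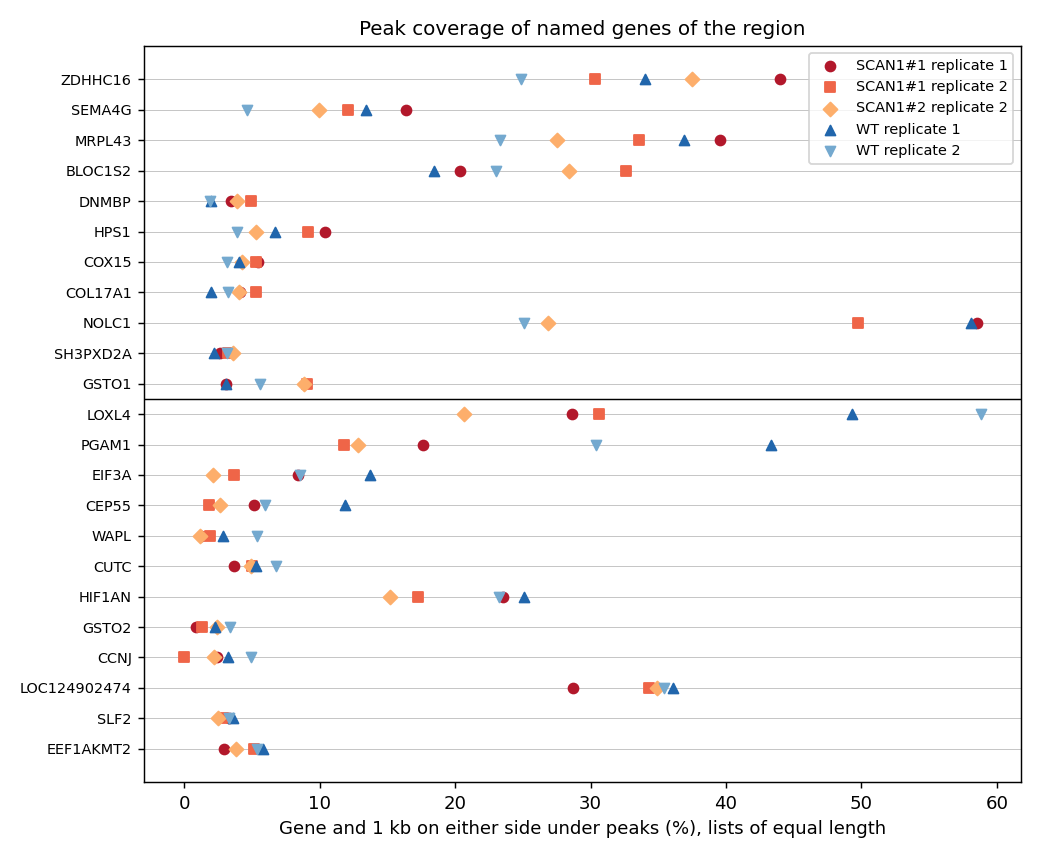
Percent of each named gene and its 1 kb flanks under peaks in the 5 libraries, with genes higher in SCAN1 within each experiment above the line and genes lower below it. LOXL4 and PGAM1 show the widest gaps, with SCAN1 at 20.6% to 30.6% and 11.8% to 17.6% and WT at 49.3% to 58.8% and 30.4% to 43.3%.

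Lists of genes by role, chosen with earlier results known, show which genes of the stretch carried hybrids at all. Of 14 genes of RNA processing, transcription and translation, 10 had a peak in all 5 libraries, and 0 of the 9 tested were called. The list averaged 14.3%, 10.4% and 8.40% in SCAN1 and 15.5% and 9.34% in WT. NPM3, a nucleolar chaperone gene, had 56.6%, 55.0% and 37.9% in SCAN1 and 68.1% and 48.4% in WT. NOLC1 had 58.5%, 49.7% and 26.9% in SCAN1 and 58.1% and 25.1% in WT. LDB1, a transcription cofactor gene, had 35.7%, 15.2% and 26.4% in SCAN1 and 35.2% and 26.5% in WT. The mean of the list was higher in experiment 1 than in experiment 2 for both genotypes.

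Metabolic and mitochondrial genes had a peak in all 5 libraries in 9 of 18, and 0 of 8 tested were called. TWNK, the mitochondrial DNA helicase gene, was covered over 51.7%, 55.0% and 38.9% in SCAN1 and 55.7% and 40.6% in WT. ATP5MK, a small ATP synthase subunit gene, had 18.7%, 24.1% and 32.7% in SCAN1 and 29.2% and 23.6% in WT. Both had overlapping groups.

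Genome maintenance genes had a peak in all 5 libraries in 6 of 14, and 0 of 5 tested were called. POLL had 49.0%, 36.6% and 15.1% in SCAN1 and 45.5% and 35.0% in WT, with the lowest value in SCAN1#2. MMS19, which helps insert iron-sulphur clusters into repair enzymes, had 7.56%, 6.56% and 6.16% in SCAN1 and 8.39% and 5.09% in WT. SMC3, a cohesin ring subunit gene, had 5.30%, 2.95% and 4.75% in SCAN1 and 2.51% and 5.43% in WT. The median difference over the 5 tested genes was -0.56 points.

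Of 8 genes of mitosis and the cell cycle, 7 had a peak in all 5 libraries, and the 4 tested, CEP55, CCNJ, ACTR1A and BUB3, had a median difference of -1.9 points with 0 called. Growth control and apoptosis genes had a peak in all 5 libraries in 5 of 9, and PDCD4, a translation repressor gene and the 1 gene tested, differed by 0.63 points. In the signalling list, 6 of 13 genes had a peak in all 5 libraries. NFKB2 was the most covered, at 72.9%, 73.3% and 25.8% in SCAN1 and 57.8% and 31.5% in WT. SCAN1#2 stood below the other 4 libraries there.

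Matrix and cytoskeleton genes had a peak in all 5 libraries in 8 of 11, with LOXL4, ANKRD1 and COL17A1 tested and 0 called. ANKRD1 had 14%, 21.6% and 16.4% in SCAN1 and 18% and 18.9% in WT, with overlapping groups. Long neuronal genes, such as NEURL1 and SORCS1, had a peak in all 5 libraries in 6 of 9, and list means of 0.108%, 0.618% and 0.471% in SCAN1 and 0.160% and 0.842% in WT were too low for the test. Both libraries of experiment 1 were the lowest.

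Tissue-specific and inducible genes had few peaks. Of 13 liver cytochrome P450 and digestive lipase genes, 9 had no peak in any library and 0 had one in all 5. Interferon-induced genes had no peak in 5 of 6, the exception being IFIT3. Developmental regulators had no peak in 10 of 15, HHEX among them, and a peak in all 5 libraries in FGF8 and PAX2. FGF8, a growth factor gene of the embryo, had 19.1%, 29.7% and 4.0% in SCAN1 and 22.6% and 13.5% in WT. Expression was not measured in these libraries.

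Noncoding genes of the stretch followed the same range. Of 238 long noncoding RNA genes, 34 had a peak in all 5 libraries and 128 had none. ADIRF-AS1, antisense to ADIRF, was covered over 78.2%, 83.8% and 63.0% in SCAN1 and 84.0% and 74.8% in WT in the full lists, without flanks. The peak lists give no strand, so a gene and its antisense partner cannot be told apart. Of 31 microRNA genes, 30 had no peak, and 13 of 13 small nucleolar RNA genes had none. Any overlap was counted, and a longer gene has more chance of one. These small RNA genes are 58 to 222 bases long, whereas ENTPD1-AS1, with 337030 bases, counted in all 5 libraries at a mean coverage of 0.235%.

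The labelled cell type was checked against marker genes across the genome. Of 7 mesenchymal and osteoblast markers, 5 had a peak in all 5 libraries, SPARC, RUNX2, VIM, THY1 and COL1A1. The liver markers ALB, APOA1 and TTR had no peak, the 4 blood markers had 0 with a peak in all 5, and the epithelial markers EPCAM and CDH1 had peaks in all 5 while KRT20 had none. Peaks over marker genes are no measure of expression.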

How the data were processed

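Each of the 5 DRIP libraries had 1 deposited narrowPeak list on hg38. The submitters' processing notes name MACS3 3.0.0a6, BWA 0.7.17-r1188, deepTools 3.5.1, SAMtools 1.9 and FastQC 0.11.5, and the sources used here do not give the peak-calling options. Per the layout of the deposited files, each peak has a fold enrichment (a ratio), a -log10 p, a -log10 q and a score. The 5 input samples are not analysed here. Per the labels, RNase H removed the RNA of the S9.6 pulldowns before the libraries were made.

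Members and gene lists were chosen with earlier results of these data known. Named genes were up to 12 per direction with 1 sign in all 3 comparisons within experiments, by the smallest difference, and 2 to 4 genes per list by mean coverage. Named merged regions were the strongest 10 shared, the widest 5 and up to 5 per genotype pattern. Genes came from RefSeq GRCh38.p14, without strand or exons. Coverage used the 63456 peaks of highest -log10 p per library, and was fitted with limma 3.58.1 in R 4.3.3, after a test on simulated data. The simulated spread was smaller, and the simulated shift larger than any difference named here. That test checks that the fit runs as intended and does not show what differences it could find in these libraries. Python 3.11.15, pandas 2.3.3 and scipy 1.17.1 were used. Replicate numbers pair the samples because the labels tie them to the experiment, and deviations of paired libraries correlated at 0.61, 0.32 and 0.47 over all genes tested. With 3 against 2 libraries, deviations from the group means are partly fixed by the arithmetic.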

Additional observations from a re-analysis of the deposited data

Results flagged for a closer look

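The share of peak bases at gene ends of the region was 0.0608 above WT of the same experiment on the log2 scale in SCAN1#2, and -0.03 and -0.08 in the 2 SCAN1#1 libraries. The difference between the lines was not tested, and SCAN1#2 had 1 library.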

How the results depend on the processing

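The stretch was chosen for its lower share of peak bases in SCAN1 in these same libraries, so a kept sign of that share is no independent support. The share stayed lower in SCAN1 under every alternative run (-0.26 to -0.07 on the log2 scale), with -0.23 for the replicate block. So did the share of the 35 Mb outside 100 to 105 Mb (-0.59 to -0.07), an alternative chosen after seeing the data. The 100 to 105 Mb bin lay between -0.12 and 0.11. The leave-one-out values among these take no account of the experiment. The gene end share of the region, without a block, ran from -0.52 to 4.32 points when each library was left out in turn, and was 3.15 points with the replicate block. The excess of gene ends over the rest of the genome stayed positive throughout (2.77 to 9.75 points). The number of members called stayed at 0 in all 10 alternatives of the limma fit. Regions with peaks in SCAN1 alone numbered 11 with equal-length lists and 26 to 101 when a library was left out, and those in WT alone 19 at a -log10 q of at least 5 and 47 to 278 when a library was left out. The named genes were chosen for 1 sign in these same libraries, so a kept sign is no independent support. Of 161 gene differences between group means under alternatives, 156 kept their sign. The others were SEMA4G and MRPL43 without WT of experiment 2 (-0.62 and -3.36 points, at the low end of leave-one-out ranges up to 8.15 and 10.2) and NOLC1 with the full lists (-3.43), without SCAN1#1 of experiment 1 (-3.32) and without WT of experiment 2 (-13.1, in a leave-one-out range up to 19.9). In the full lists, SEMA4G, MRPL43, NOLC1, GSTO2 and EIF3A did not keep 1 sign in all 3 comparisons within experiments, the trait they were named for. The cause of these changes was not tested. Without read depth or input signal, a peak missing from a list does not show that hybrids were absent.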
